A study of Mus musculus with 4 samples.

Results

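Col10a1, Panx3, Prkg2 and Pth1r mark the path from resting cartilage to hypertrophic cartilage, and they are described here in tdTom+ cells sorted from the mouse spine. These 4 genes were chosen by name from the 32286 genes listed in each count matrix, and all 4 were found in all 4 libraries. In growing and endplate cartilage, chondrocytes that leave the cell cycle become prehypertrophic and secrete Indian hedgehog (Ihh), and they then enlarge and make a collagen X matrix that is mineralized. Indian hedgehog raises parathyroid hormone-related protein (PTHrP, gene Pthlh) in chondrocytes farther from the front, and PTHrP acts back through its receptor Pth1r to delay hypertrophy. Prkg2 encodes the membrane-bound cGMP-dependent protein kinase through which C-type natriuretic peptide promotes long bone growth, Panx3 encodes a pannexin channel of prehypertrophic chondrocytes and osteoblasts, and Col10a1 encodes the short-chain collagen of hypertrophic cartilage.

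The libraries were made with 10x Genomics 3′ chemistry, in which reads that share a unique molecular identifier (UMI) within a cell are counted once, so that values are UMI counts. The 2 control libraries came from mice labelled Prss56Cre/+;R26tdTom/tdTom;Nf1+/+, and the 2 mutant libraries from mice labelled Prss56Cre/Cre;R26tdTom/tdTom; Nf1fl/fl, at 3 months and at 12-16 months of age. All mice carried the R26tdTom reporter on both alleles and Cre at the Prss56 locus, so that tdTom marks cells with present or past Prss56 expression. Control mice had 1 Cre allele and mutant mice had 2, so the number of Cre alleles and the loss of Nf1 cannot be told apart. There was 1 library for each condition and the number of mice behind it was not given in the sources used here, so no difference between libraries has a replicate check, and the intervals printed below (95%) cover counting error only.

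A cell passed with over 750 UMIs, over 500 genes and under 7% of its UMIs from mitochondrial genes. At 3 months 717 control and 484 mutant cells passed, and at 12-16 months 135 control and 421 mutant cells did, and values are given below in this order of libraries. Their median depth ranged from 8189 to 12644 UMIs, and no barcode was shared between passing cells of any of the 6 pairs of libraries. The unit of a level is CPM, which scales the summed UMIs of the cells in question to 1000000. Nf1 did not separate the control from the mutant libraries (125 to 150 CPM), but 3′ tags can lie outside the deleted part of Nf1 and check nothing. The 3-month mutant library stood apart by 4 Y-linked genes, with a summed level of 0.686 CPM against 22.3 to 56.6 CPM in the other libraries, and its part in the values below was not tested.

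Cells were gated by 4 genes that are not members. Cartilage cells had at least 1 UMI of Sox9 and at least 3 UMIs of Acan, and they were divided into 92 cells with Ihh detected and 1194 cells without an Ihh UMI. The bone/stroma gate held 194 cells with at most 2 UMIs of Acan and at least 1 of Runx2, and 277 cells fell in no gate. The Ihh-detected gate held 16, 54, 3 and 19 cells in the 4 libraries, or 2.23%, 11.2%, 2.22% and 4.51% of passing cells. It held the deepest cells, with a median of 21799 UMIs against 11744.5 in Ihh-undetected cartilage and 11719 in bone/stroma, so the share of cells with each member in each gate is also given after thinning each cell to 5000 UMIs, while shares of cells with several members are not thinned.

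Chondrocyte marker sums separated the 3 gates without overlap. The 8 chondrocyte markers (Col2a1 and others) had sums of 25066 to 34849 CPM in Ihh-detected cartilage, 13039 to 16399 CPM in Ihh-undetected cartilage and 302 to 4178 CPM in bone/stroma. The 8 osteoblast and osteocyte markers had sums of 8274 to 146480 CPM in bone/stroma and at most 386 CPM in Ihh-undetected cartilage. Ihh-detected cartilage reached 2300 to 11700 CPM and so overlapped the bone/stroma sum of the 3-month mutant library alone (8274 CPM). In the other libraries the bone/stroma sums were 92227, 146480 and 45805 CPM. The sums of the 4 fibroblast markers reached 5514 to 14559 CPM in Ihh-undetected cartilage and at most 1304 CPM in Ihh-detected cartilage. Dcn and Gsn made up most of this sum in Ihh-undetected cartilage, at 6646 and 3506 CPM with the 4 libraries together. Dpt and Pi16 stood at 26.1 and 0.124 CPM there. In the bone/stroma gate of the 3-month mutant library, 23 of 39 cells held the leukocyte gene Ptprc, against 1 of 45, 2 of 27 and 7 of 83 in the other libraries, although cells stained for CD45 had been discarded at the sort. The 6 hematopoietic markers summed to 1903 CPM in that gate and to 8.87, 296 and 512 CPM in the same gate of the other libraries. No cell of either cartilage gate held Ptprc.

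The 4 genes lie on 3 chromosomes of the mm10 (GRCm38) genome. Col10a1 spans chr10:34389981-34397085 on the plus strand within Nt5dc1, which runs on the opposite strand and had 146 UMIs in the Ihh-detected cells. Pth1r spans chr9:110722085-110747145 on the minus strand and overlaps Myl3 on the opposite strand, which had 95 UMIs in those cells. Panx3 spans chr9:37659902-37669235 and Prkg2 spans chr5:98929773-99037351, both on the minus strand. Col10a1 and Pth1r had windows in the RefSeq promoter table (GRCm38.p6), and the 100 bases before the Col10a1 start and before 2 of the 3 listed Pth1r starts are shown because both genes were higher in the Ihh-detected cells while their windows differ in kind. Capitals mark the TATA box letters TATAAA, which begin at position -32 from the Col10a1 start, and these letters do not stand in the Pth1r windows.

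Col10a1 chr10:34389881-34389980, plus strand: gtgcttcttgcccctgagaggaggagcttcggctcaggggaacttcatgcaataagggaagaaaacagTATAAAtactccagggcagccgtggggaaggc
Pth1r chr9:110747146-110747245, minus strand: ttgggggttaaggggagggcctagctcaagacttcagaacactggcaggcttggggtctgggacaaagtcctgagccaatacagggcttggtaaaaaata
Pth1r chr9:110743687-110743786, minus strand: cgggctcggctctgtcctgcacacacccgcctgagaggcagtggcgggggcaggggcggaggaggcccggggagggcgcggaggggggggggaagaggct

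The GC content of these stretches was 54% for Col10a1 and 52% and 78% for the Pth1r starts. TATAAA on either strand stood in 13.6% of all 32851 promoter windows of 300 bases. The letters TGTGGT (RUNX, in 16.8% of all windows), AACAAT (SOX, 10.7%), TGGGTGGTC (GLI, 0.253%), TGACGTCA (CRE, 1.79%) and TGANTCA (AP-1, 7.81%) were searched on both strands and stood in none of the full Col10a1 and Pth1r windows. A match or its absence describes these letters in these windows and nothing else.

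Pth1r, the receptor of PTHrP and parathyroid hormone, was high in the Ihh-detected cells of every library. Its level there was 2212 CPM in control and 2377 CPM in mutant cells at 3 months, and 2870 CPM in control and 2409 CPM in mutant cells at 12-16 months, or 2467 ± 282 CPM (SD, n = 4 libraries of different conditions). These 4 libraries differed by at most 1.30-fold. In Ihh-undetected cartilage its level was 106, 351, 202 and 318 CPM, and in bone/stroma it was 494, 129, 410 and 439 CPM, in the same order of libraries. All 4 Ihh-detected values lay above all 8 values of the other gates, whereas the ranges of the Ihh-undetected and bone/stroma gates overlapped.

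Prkg2, the kinase, varied least among the Ihh-detected sums, at 2873, 2680, 2509 and 2533 CPM (2649 ± 168 CPM, SD, n = 4 libraries). The highest of these libraries exceeded the lowest by 1.15-fold. This evenness rests in part on single cells, since 1 cell held 351 of the 943 UMIs of the 12-16-month mutant value. Without the highest Prkg2 cell of each library, a choice made after the values were seen, the levels were 2325, 2439, 2310 and 1735 CPM. In Ihh-undetected cartilage Prkg2 stood at 32.9, 201, 146 and 329 CPM, and thus varied 10.0-fold between libraries. A single cell with 339 of the 820 UMIs carried 41.3% of the 12-16-month mutant value. In bone/stroma Prkg2 had 1, 0, 0 and 15 UMIs, which is at most 15.5 CPM, so the 3 gates did not overlap.

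Panx3, the channel gene, had the fewest UMIs of the members (1320 in all passing cells). Its level was 534, 428, 1045 and 543 CPM in Ihh-detected cartilage (638 ± 277 CPM, SD, n = 4 libraries), where the 12-16-month control value rests on 55 UMIs of 3 cells. In Ihh-undetected cartilage it was 2.81, 34.7, 3.19 and 17.7 CPM, and 1 cell gave 95.5% of the UMIs of the 3-month control and another 84.1% of those of the 12-16-month mutant library. In bone/stroma it was 11.4, 1.16, 12.3 and 32.0 CPM. The Ihh-detected values lay above all the others, and those of the other gates overlapped.

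Col10a1, the matrix gene, was the least even of the members in Ihh-detected cartilage. It reached 6024 CPM in the 3-month control and 6382 CPM in the 12-16-month mutant library, 1366 CPM in the 3-month mutant library and 0 in the 12-16-month control library (3443 ± 3239 CPM, SD, n = 4 libraries). The value of 0 rests on 3 cells and 52611 UMIs, which allows a level of up to 70.1 CPM at the upper exact Poisson bound. In Ihh-undetected cartilage Col10a1 stood at 121, 68.4, 43.0 and 154 CPM, and in bone/stroma it had 7, 0, 0 and 1 UMIs, or at most 8.87 CPM. The Ihh-detected and Ihh-undetected ranges overlapped because of the 12-16-month control library, and in order of level mutant and control libraries alternated.

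**Figure D1:**
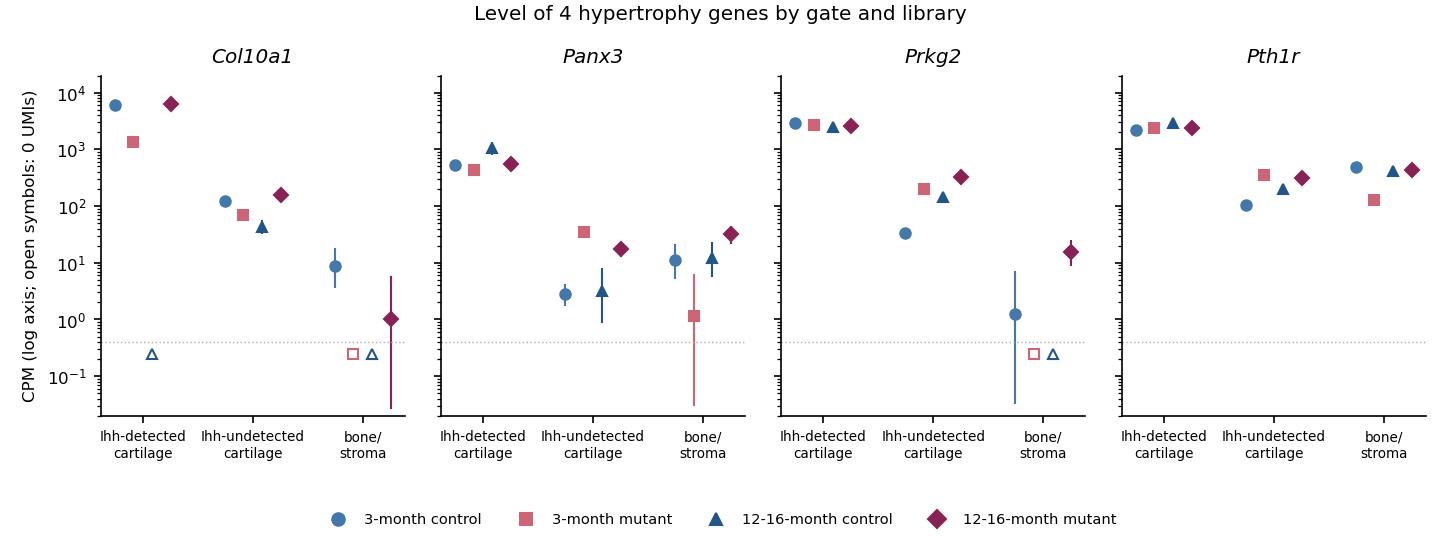
Level of each gene (CPM, log axis) in the sum of the cells of each gate, 1 point per library, with 95% exact Poisson intervals for counting error and open symbols for 0 UMIs. In Ihh-detected cartilage Prkg2 and Pth1r stood between 2212 and 2873 CPM in all 4 libraries, whereas Col10a1 ran from 0 to 6382 CPM.

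A test of the gates across libraries called all 4 members higher in Ihh-detected than in Ihh-undetected cartilage. The 12 sums of 3 gates in 4 libraries were fitted with edgeR's quasi-likelihood test with the library as a block, over 9705 genes, and p-values were adjusted by Benjamini-Hochberg, so that the spread is that between libraries that also differ in age and genotype. By that test Panx3 was higher by 5.60 on the log2 scale (SE 0.83, adjusted p = 0.0016), Prkg2 by 4.29 (SE 0.69, adjusted p = 0.00254), Pth1r by 3.32 (SE 0.50, adjusted p = 0.00167) and Col10a1 by 4.30 (SE 0.97, adjusted p = 0.0154), each SE being the size of the difference over the square root of its F. Among all genes 3.75% were called higher and 6.01% lower in this comparison. The members and gates were chosen with earlier results of these data known, so these calls are no independent check. The call for Col10a1 was lost without the 3-month control library (3.72, adjusted p = 0.10 by edgeR's quasi-likelihood test) and without the 12-16-month mutant library (3.77, adjusted p = 0.147).

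Against bone/stroma, all 4 members were again higher in Ihh-detected cartilage, where 11.8% of all genes were called higher and 12.2% lower. The differences by edgeR's quasi-likelihood test were 5.62 for Panx3 (adjusted p = 0.000506), 9.86 for Prkg2 (adjusted p = 1.69e-05) and 2.79 for Pth1r (adjusted p = 0.00137) on the log2 scale. The fitted value for Col10a1 (10.38) and that for Prkg2 depend on a prior count, since both genes were at or near 0 UMIs in bone/stroma.

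Ihh-undetected cartilage held more Col10a1 (by 6.08 on the log2 scale, adjusted p = 0.00181) and Prkg2 (by 5.57, adjusted p = 0.000323) than bone/stroma by the same edgeR fit, in which 15.7% of all genes were called higher and 13.2% lower. The Col10a1 call was lost when cells were thinned to 5000 UMIs before gating (2.04, adjusted p = 0.137 by edgeR). Panx3 (0.02, adjusted p = 0.995) and Pth1r (-0.52, adjusted p = 0.467) were not called by edgeR's quasi-likelihood test. Without the Ptprc-detected cells, a choice made after the values were seen, bone/stroma held Pth1r at 496, 588, 461 and 477 CPM, and Pth1r was then lower in Ihh-undetected cartilage than in bone/stroma by edgeR (-1.06, adjusted p = 0.0133). It was also lower without the 3-month mutant library (-1.12, adjusted p = 0.0243 by edgeR), and the value for Panx3 then stood at -1.24 (adjusted p = 0.111).

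The UMIs of the members were gathered in few cells. The Ihh-detected cells were 5.24% of passing cells and, being the deepest, held 2121438 of the 23270733 UMIs of all genes. They held 79.4% of the Col10a1 UMIs (6742 of 8493) and 78.0% of those of Panx3 (1030 of 1320). For Prkg2 their share was 71.9% (5707 of 7936) and for Pth1r 51.0% (5008 of 9821). Bone/stroma held 12.5% of the Pth1r UMIs and at most 3.79% of those of any other member. These shares are of the 4 libraries together and differed between libraries. In the 12-16-month control library the bone/stroma cells held 40.6% of the Pth1r UMIs, and the Ihh-detected cells held 0 of the 55 Col10a1 UMIs. For Prkg2 the Ihh-detected share was 83.0%, 78.4%, 40.2% and 52.7% in the order of libraries.

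With the 4 libraries together, the share of cells with at least 1 UMI set Col10a1 apart from the other members within the Ihh-detected gate. Pth1r was detected in 89 of the 92 cells (96.7%, Clopper-Pearson interval 90.8 to 99.3%), Prkg2 in 86 (93.5%, 86.3 to 97.6%) and Panx3 in 78 (84.8%, 75.8 to 91.4%). Col10a1 was detected in 37 of them (40.2%, 30.1 to 51.0%). After thinning to 5000 UMIs the shares were 95.3%, 93.8%, 70.5% and 39.8%, so only the share of Panx3 depended much on depth. These cells come from libraries of different conditions, 54 of them from the 3-month mutant library. By library Col10a1 was detected in 9 of 16, 19 of 54, 0 of 3 and 9 of 19 cells, the lowest share of the members each time. Panx3 was detected in 13, 49, 2 and 14. The intervals of these 2 genes lay apart in the 3-month mutant library alone (22.7 to 49.4% and 79.7 to 96.9%).

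In Ihh-undetected cartilage Pth1r was detected in 564 of 1194 cells (47.2%, or 31.3% after thinning), Col10a1 in 192 (16.1%, thinned 11.6%), Prkg2 in 191 (16.0%, thinned 12.6%) and Panx3 in 20 (1.68%, thinned 1.07%). In bone/stroma Pth1r was detected in 132 of 194 cells (68.0%, thinned 63.9%), Panx3 in 20 (10.3%, thinned 4.78%), Prkg2 in 7 (3.61%, thinned 2.06%) and Col10a1 in 2 (1.03%). Both cells with Col10a1 had under 5000 UMIs and were left out of the thinning to that depth. After thinning to 2000 UMIs the Col10a1 share was 0.901%. Cells with at least 1 Ptprc UMI, taken as leukocytes that should lack these genes, served as a reading of free RNA. Of these 87 cells, 33 lay in the bone/stroma gate, so not all need be leukocytes. None held Col10a1, Panx3 or Prkg2, which allows a share of up to 3.45%, and 1 held Pth1r (1.15%, 4 UMIs). That cell lay in the bone/stroma gate of the 12-16-month control library, so its Pth1r need not be free RNA. In the 3-month control library this reading had 13 cells and 22477 UMIs, which allows up to 164 CPM of Col10a1 and so sets no limit below the 121 CPM of its Ihh-undetected cartilage.

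**Figure D2:**
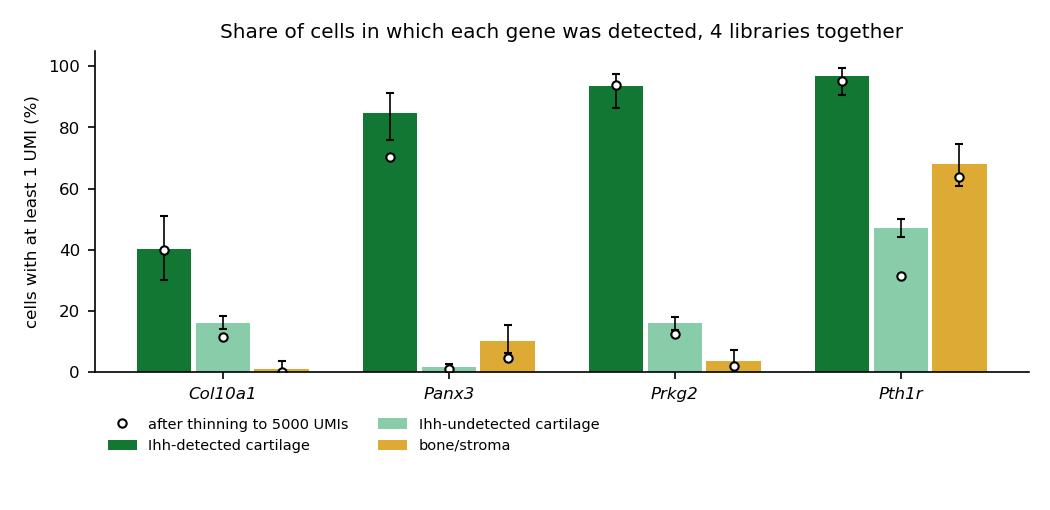
Share of cells (%) with at least 1 UMI of each gene in each gate, the 4 libraries together, with Clopper-Pearson 95% intervals and, as open circles, the share after thinning every cell to 5000 UMIs. Pth1r, Prkg2 and Panx3 were detected in 84.8 to 96.7% of Ihh-detected cells and Col10a1 in 40.2%.

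Within single Ihh-detected cells, Col10a1 was either undetected or present at 4 or more UMIs. None of the 37 cells with Col10a1 held fewer than 4 UMIs, 30 held at least 10, and 15 held at least 100. The highest cells held 1358 UMIs in the 3-month control, 377 in the 3-month mutant and 1090 in the 12-16-month mutant library, and the first of these carried 51.2% of the 2650 Col10a1 UMIs of its library in this gate. Prkg2 and Pth1r were more even over the same cells, with medians of 42.5 and 50.5 UMIs and highest cells of 412 and 192 UMIs.

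**Figure D3:**
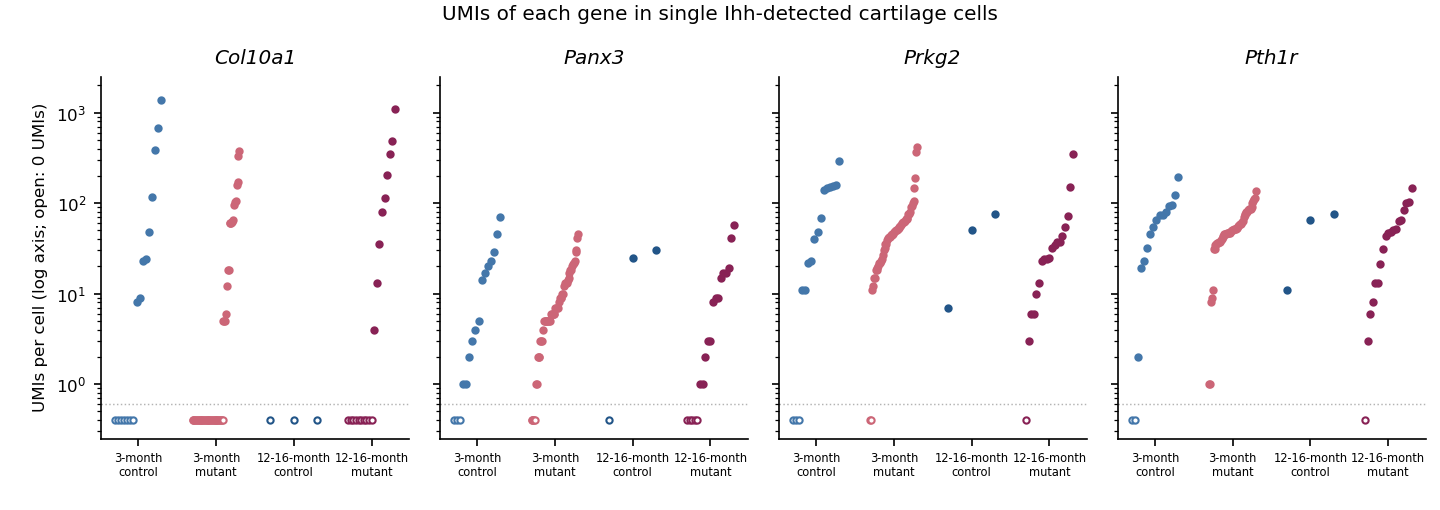
UMIs of each gene (log axis) in every Ihh-detected cartilage cell, 1 point per cell ordered by value within each library, with open symbols for cells without a UMI. Col10a1 ran from 4 to 1358 UMIs in 37 cells and was 0 in 55, whereas Prkg2 was 0 in 6 cells and Pth1r in 3.

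The members were found together in Ihh-detected cells. All 4 were detected in 7 of 16, 18 of 54, 0 of 3 and 6 of 19 cells of the 4 libraries, and exactly 3 members in 51 of the 92 cells (55.4%). All 78 cells with Panx3 also held Prkg2 and Pth1r, and all 86 cells with Prkg2 held Pth1r. Cells with and without Col10a1 held Prkg2 in similar shares (35 of 37 and 51 of 55). These shares are a description of cells from 4 libraries and were not tested.

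Outside the Ihh-detected gate, Prkg2 was found with Pth1r and seldom with Col10a1. In Ihh-undetected cartilage 182 of the 191 cells with Prkg2 held Pth1r (95.3%), against 38.1% of the cells without Prkg2, and 17 of the 20 cells with Panx3 held Prkg2. Of the 192 cells with Col10a1 there, 9 held Prkg2 (4.69%), against 18.2% of the cells without Col10a1, and 1 held Panx3. The depths of the cells with and without Col10a1 were close, with medians of 12265.5 and 11656.5 UMIs. Thus 80% of the 240 passing cells with Col10a1 were cartilage cells without an Ihh UMI, most of them with few molecules of it, since 112 of these 192 cells held 1 to 3 Col10a1 UMIs and 44 held at least 10.

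Among cartilage cells without Ihh, Prkg2 was detected in a smaller share of the cells with Col10a1 than of those without it in each library, at 0 against 7.13%, 17.4% against 32.0%, 0 against 21.1% and 8.77% against 21.4%. Its summed levels rest on few cells. In the 3-month control library the 97 such cells held no Prkg2 UMI in 1316206 UMIs, against 39.5 CPM in the 449 cells without Col10a1, a ratio of at most 0.0577 with 3 counts in place of 0. The 15 such cells of the 12-16-month control library likewise held none (ratio at most 0.0860). In the mutant libraries the ratio was 0.928 (0.711 to 1.19) at 3 months, on 66 UMIs in 4 cells with Col10a1, and at 12-16 months it was 2.48 (2.15 to 2.85), the latter with 378 Prkg2 UMIs in 5 cells, of which 339 lay in 1 cell. Without that cell, a choice made after the values were seen, the ratio at 12-16 months was 0.268 (0.188 to 0.372), so its direction rests on 1 cell. Pth1r was lower in the Col10a1-positive than in the Col10a1-negative cells of the gate at 0.343-fold in the 3-month control, 0.307-fold in the 12-16-month control and 0.344-fold in the 12-16-month mutant library, and the ratio was 0.830 (0.674 to 1.01) in the 3-month mutant library.

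Within Ihh-detected cartilage, Panx3 was lower in the cells with Col10a1 than in those without it in each of the 3 libraries that held both kinds. Its level with and without Col10a1 was 256 and 861 CPM in the 3-month control, 291 and 493 CPM in the 3-month mutant and 199 and 819 CPM in the 12-16-month mutant library, which gives ratios of 0.298 (0.219 to 0.401), 0.591 (0.478 to 0.726) and 0.243 (0.162 to 0.354). Prkg2 was lower with Col10a1 in both 3-month libraries (0.423-fold in the control and 0.567-fold in the mutant) and 1.67-fold as high in the 12-16-month mutant library, where 1 cell held 351 of the 943 UMIs and the ratio without it was 0.724 (0.606 to 0.862). For Pth1r the ratios were 0.719, 1.08 and 0.613. Panx3 stayed below 1 in these 3 libraries without its highest cell (0.339, 0.633 and 0.302), whereas Pth1r was on either side of 1.

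Other genes of the 2 kinds of Ihh-detected cell were read after their values were seen. Spp1, the gene of osteopontin, was 16.0-fold, 9.91-fold and 11.9-fold higher in the cells with Col10a1 in the same 3 libraries. In the mutant libraries these sums rest on few cells. The summed Spp1 levels with Col10a1 were 30000, 5573 and 19768 CPM, while the median cell stood at 18684, 229 and 128 CPM. Runx2, a transcription factor of hypertrophy and bone formation, was 2.66-fold, 1.57-fold and 3.31-fold higher in its summed level, and Ihh itself, which chose these cells, 1.28-fold, 1.46-fold and 3.84-fold higher. In the 3-month control library the median cell held Ihh at 801 CPM with and 820 CPM without Col10a1. Runx2 medians there were 550 and 449 CPM, with Runx2 in 6 of 9 and 6 of 7 cells. The Ihh medians were 591 and 213 CPM in the 3-month mutant and 656 and 314 CPM in the 12-16-month mutant library. Ibsp, the gene of bone sialoprotein, was 2.04-fold, 3.41-fold and 1.25-fold higher. Alpl did not follow, at 0.370-fold, 0.958-fold and 0.704-fold, nor did the osteoblast transcription factor gene Sp7, at 0.931-fold, 0.841-fold and 1.00-fold. Col2a1, the main collagen of cartilage, stood at 0.430-fold, 0.60-fold and 0.404-fold. The cells were divided by their own Col10a1 counts, so these values describe how the genes lay together and carry no test.

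**Figure D4:**
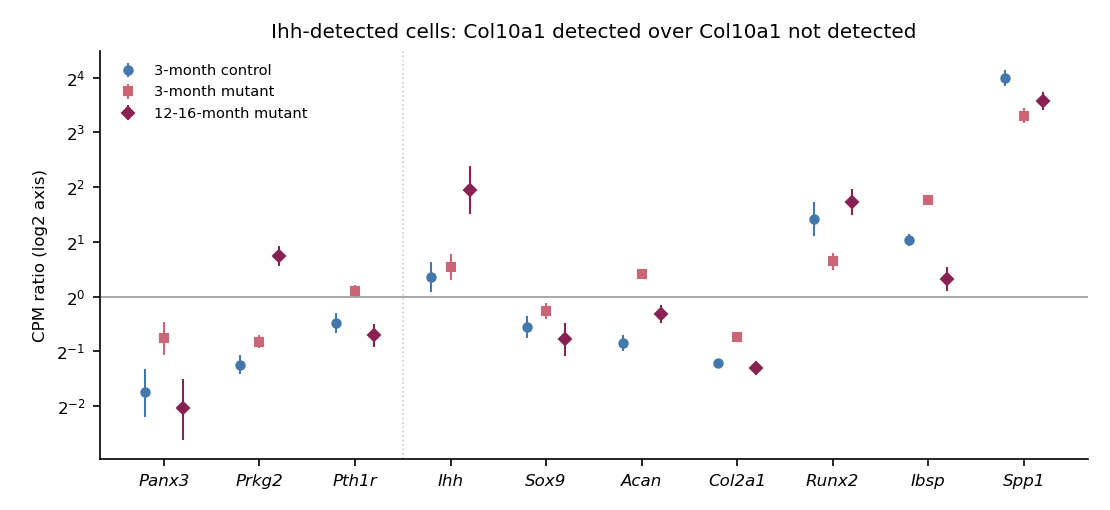
Ratio of CPM (log2 axis) in Ihh-detected cells with Col10a1 over those without it, for 3 members and 7 other genes, 1 point per library that held both kinds of cell, with conditional binomial 95% intervals for counting error. Panx3 and Col2a1 lay below 1 and Spp1, Runx2, Ihh and Ibsp above 1 in all 3 libraries.

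The mutant and control libraries were compared at each age, first over all passing cells. At 3 months Panx3 stood at 95.8 CPM in the mutant and 28.2 CPM in the control library (ratio 3.4, 2.94 to 3.92), Prkg2 at 589 and 161 CPM (3.65, 3.44 to 3.87) and Pth1r at 649 and 236 CPM (2.75, 2.62 to 2.90). Col10a1 was lower in the mutant, at 279 against 386 CPM (0.723, 0.685 to 0.764). The size of this ratio rests in part on 1 control cell, which held 1358 of the 3640 control UMIs (37.3%). Col10a1 was detected in 9.09% of the mutant and 15.5% of the control cells. Hence 3 of the 4 members were at least 2-fold higher in the mutant library, as 14.5% of the 14559 genes with at least 20 UMIs were. In such sums a larger share of a cell type and more RNA per cell cannot be told apart.

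Within the gates these ratios were different. In Ihh-detected cartilage the mutant over control ratio at 3 months was 0.801 (0.686 to 0.938) for Panx3, 0.933 (0.874 to 0.996) for Prkg2, 1.07 (0.999 to 1.16) for Pth1r and 0.227 (0.213 to 0.241) for Col10a1. The share of Ihh-detected cells was 11.2% in the mutant and 2.23% in the control library, and when every gate was given the same share of UMIs in both libraries, the ratio over all cells became 1.21 for Panx3, 1.35 for Prkg2, 1.37 for Pth1r and 0.269 for Col10a1. In Ihh-undetected cartilage the mutant library held 12.3-fold more Panx3 (7.86 to 20.2), 6.11-fold more Prkg2 (5.31 to 7.04), 3.30-fold more Pth1r (3.03 to 3.59) and 0.565-fold as much Col10a1 (0.496 to 0.643). The highest cell for the gene in question was also left out of each library, a choice made after seeing the values. Without the highest Col10a1 cells the Col10a1 ratio in Ihh-detected cartilage at 3 months was 0.317 (0.294 to 0.343). Without the highest Prkg2 cells the Prkg2 ratio there turned to 1.05, as it did with every cell weighted equally (1.04). In Ihh-undetected cartilage the Panx3 ratio rests on 10 mutant and 2 control cells, and 1 control cell held 21 of the 22 control UMIs. Without the highest cells it was 194 (34.1 to 7721, on 113 and 1 UMIs), so its size was not settled. The ratios of Prkg2, Pth1r and Col10a1 in that gate were then 6.66, 3.33 and 0.409.

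At 12-16 months Col10a1 had the largest ratio of the members over all passing cells, at 628 CPM in the mutant and 25.5 CPM in the control library (24.6, 18.8 to 32.7), and Prkg2 stood at 407 and 152 CPM (2.67, 2.37 to 3.02). Panx3 (63.0 and 36.7 CPM, 1.72, 1.33 to 2.23) and Pth1r (484 and 342 CPM, 1.41, 1.30 to 1.54) differed less, and their direction was not stable. With equal gate shares the ratio of Panx3 was 0.626 and that of Pth1r 1.05, and with every cell weighted equally they were 0.85 and 0.833. So 2 of the 4 members were at least 2-fold higher in the mutant library, as 7.08% of 12939 genes were. The control library gave 55 Col10a1 UMIs in all, while 2376 of the 2763 mutant UMIs lay in 9 Ihh-detected cells, 1 of which held 1090. Col10a1 was detected in 16.4% of the mutant and 11.9% of the control cells. In the Ihh-detected cells the Col10a1 ratio sets no limit on the difference, since the control library had 3 cells, all without it, and 10 of the 19 mutant cells were also without it. There the ratio was 1.01 (0.841 to 1.22) for Prkg2, 0.839 (0.706 to 1.00) for Pth1r and 0.519 (0.384 to 0.713) for Panx3. Without the highest cell of each library these were 0.751 (0.572 to 1.00), 0.724 (0.572 to 0.930) and 0.526 (0.342 to 0.840).

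In Ihh-undetected cartilage at 12-16 months the ratio of mutant over control CPM was 3.58 for Col10a1 (2.68 to 4.85), 5.55 for Panx3 (2.02 to 21.3), 2.26 for Prkg2 (1.92 to 2.67) and 1.58 for Pth1r (1.37 to 1.82). Those of Panx3 and Prkg2 rest in part on single mutant cells, with 37 of 44 and 339 of 820 UMIs, and without the highest cell of each library they were 1.73 (0.330 to 17.1, on 7 and 2 UMIs) and 1.65 (1.37 to 2.01). The shares of cells were 2.09% in the mutant and 3.49% in the control library for Panx3, and 18.4% and 17.4% for Prkg2. For Pth1r they were 40.6% and 51.2%, and for Col10a1 23.8% and 17.4%. The mutant cells of this gate were shallower, with a median of 8317 UMIs against 11506.5. After thinning to 5000 UMIs the shares were 1.52% and 0.528% for Panx3 and 18.7% and 14.2% for Prkg2. They were 33.8% and 33.2% for Pth1r and 18.6% and 11.7% for Col10a1, so the order of Panx3 and Pth1r turned with thinning. In bone/stroma Pth1r differed by 1.07-fold (0.92 to 1.24) at this age and stood at 0.261-fold (0.209 to 0.323) in the mutant at 3 months, where most cells of the gate held Ptprc. Without Ptprc-detected cells Pth1r at 3 months was not lower in the mutant, at 588 CPM (483 to 708) against 496 CPM (448 to 547) in the control library. The 9 immediate-early and heat shock genes taken as a reading of stress from cell isolation summed to 14368, 9483, 475 and 7865 CPM in the Ihh-detected cells of the 4 libraries, with the lowest sum in the library without Col10a1 there. Their part in the Col10a1 values was not tested.

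**Figure D5:**
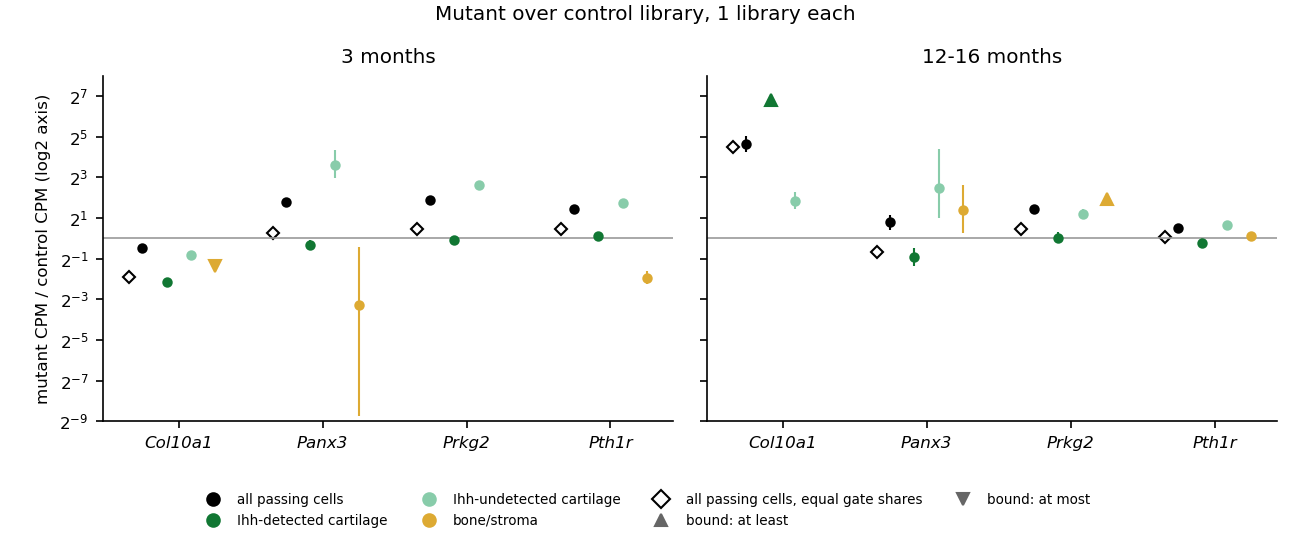
Ratio of CPM in the mutant over the control library (log2 axis) at 3 months and at 12-16 months, for all passing cells, for all passing cells with equal gate shares (open diamonds) and for each gate, with conditional binomial 95% intervals and triangles where 0 UMIs were set to 3 counts. At 3 months Panx3, Prkg2 and Pth1r lay between 2.75 and 3.65 over all cells and between 0.801 and 1.07 in Ihh-detected cartilage. The triangle for Col10a1 in Ihh-detected cartilage at 12-16 months rests on 3 control cells without the gene and sets no limit on the difference.

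The closest relatives of the members behaved differently over the gates. Col8a1 and Col8a2 encode collagen VIII, the other short-chain collagen. Col8a2 was lower in Ihh-detected than in Ihh-undetected cartilage (2.27, 2.39, 19.0 and 0 CPM against 47.2, 35.1, 52.6 and 44.2 CPM, a log2 difference of -3.97, adjusted p = 0.000753 by edgeR's quasi-likelihood test). Col8a1 had no UMI in the Ihh-detected cells and was at least 443-fold higher in bone/stroma, with 3 counts over the gate set for 0. Prkg1, the soluble cGMP-dependent kinase, was not called in any comparison of gates by edgeR (0.16 on the log2 scale between the cartilage gates, adjusted p = 0.90), at 418, 742, 2414 and 921 CPM in Ihh-detected cartilage. Panx1, Panx2 and Pth2r had 5, 1 and 0 UMIs in the Ihh-detected cells and were too low to be tested.

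Genes of the hypertrophy programme beside the members were counted from a list of 22, of which 19 were tested. Of these 7 were higher and 0 lower in Ihh-detected than in Ihh-undetected cartilage (median log2 difference 0.98, against -0.06 over all genes), where 3.75% of all genes were higher and 6.01% lower. By edgeR's quasi-likelihood test they included Alpl, the alkaline phosphatase of mineralizing cells (4.57, adjusted p = 0.000346), Ibsp, the gene of bone sialoprotein (4.35, adjusted p = 0.00991), and the transcription factors Mef2c (4.24, adjusted p = 0.000337) and Foxa2 (3.09, adjusted p = 0.000663). Against bone/stroma 13 of the 19 were higher in Ihh-detected cartilage and 1, the collagenase gene Mmp13, was lower (-4.90, adjusted p = 0.0178 by edgeR), beside 11.8% and 12.2% of all genes. Alpl and Ibsp are also osteoblast markers, and of 7 tested osteoblast and osteocyte markers 6 were higher and 1 lower in Ihh-detected than in Ihh-undetected cartilage.

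In the PTHrP and Indian hedgehog loop, 1 of 19 tested genes was higher and 5 were lower in Ihh-detected than in Ihh-undetected cartilage (median -0.16), beside 3.75% and 6.01% of all genes, so that the share higher was near that of all genes. Pthlh, which encodes the ligand of Pth1r, was lower by edgeR's quasi-likelihood test (-4.64, adjusted p = 0.000948), opposite in direction to its receptor. The hedgehog target and antagonist Hhip (-3.92, adjusted p = 0.00141) and the transcription factors Gli2 (-3.04, adjusted p = 0.00275) and Gli1 (-2.41, adjusted p = 0.0125) were lower too. The remaining called genes, named after their values were seen, were the kinase genes Sik2 (-1.12) and Sik3 (0.99). Against bone/stroma 7 of these 19 genes were higher and 1 lower in Ihh-undetected cartilage (15.7% and 13.2% of all genes), with Pthlh at 6.39 (adjusted p = 2.26e-05 by edgeR), and 0 were higher and 1 (Gli2) lower in Ihh-detected cartilage.

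Of 6 tested genes of the C-type natriuretic peptide and cGMP pathway around Prkg2, 0 were called higher and 1 lower in Ihh-detected than in Ihh-undetected cartilage (median 0.48), which is near the 3.75% and 6.01% of all genes for so few genes. The lower gene was Npr2, the receptor that makes cGMP (-1.46, adjusted p = 0.00951 by edgeR's quasi-likelihood test). Against bone/stroma 1 of these 6 genes was higher and 1 lower in Ihh-detected cartilage, beside 11.8% and 12.2% of all genes. The cGMP phosphodiesterase gene Pde5a was the lower one (-3.75, adjusted p = 4.63e-05 by edgeR).

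The pattern of each member over the 12 sums was set against 11435 genes with at least 100 UMIs, by Pearson's r of log2(CPM + 10). Among the members Panx3 and Pth1r were most alike (r = 0.966), Panx3 with Prkg2 gave 0.870 and Prkg2 with Pth1r 0.792, and Col10a1 was less like the others (0.731 with Prkg2, 0.562 with Panx3 and 0.526 with Pth1r). The 5 genes most like Col10a1 were Rtl3 (0.966), Cnr1 (0.959), Myoz2 (0.957), Cited1 (0.947) and Pde11a (0.945), and those most like Prkg2 were Ppa1 (0.989), Epyc, Il17b, Scube1 and Wscd2. Pth1r, Dop1b, Pak3, Rarres1 and Ttll3 were most like Panx3, while Wnt5b (0.969), Panx3, Rarres1, Disp1 and Pak3 were most like Pth1r. The sums share libraries and gates, so these correlations are a description, and the top genes of Col10a1 and Prkg2 were not the same by rank correlation (0 of 5 shared).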

How the data were processed

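Single-cell RNA-sequencing was performed on tdTom+ cells of digested vertebrae, from which cells stained for CD11b, CD31 or CD45 and dead cells had been discarded. The authors deposited 1 matrix of UMI counts for each library, with 32286 genes, from Cell Ranger (8.0.0 in the file headers) and mm10. Whether intronic reads were counted is not given in the sources used here. The deposited counts were used as they stand, without the correction for free RNA and the removal of cell clusters that the study applied. Passing cells held 2154537 to 9429264 UMIs per library, which sets the precision of each level.

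Counts were summed per library and gate and scaled to CPM. Poisson, conditional binomial and Clopper-Pearson intervals were exact. Shares after thinning are expected shares over all draws of 5000 UMIs per cell, and shallower cells were left out. Scrublet called 4 to 8 doublets per library at an expected rate of 6%, and these cells were kept. Gates were compared with edgeR 4.0.16 (quasi-likelihood, TMM, filterByExpr, library as block, threshold 0.05) in R 4.3.3, a step tested on simulated data. The simulated sums had a dispersion of 0.1 and no library effect, unlike the real ones. Between the cartilage gates 91 of 100 genes changed 4-fold were recovered, but 23 of 100 changed 2-fold. A gene that was not called can therefore still differ. Python 3.11.15, numpy 2.4.6, scipy 1.17.1, pandas 2.3.3, scanpy 1.11.5 and DESeq2 1.42.0 were used for the rest. A count of 0 was set to 3 where a ratio needed it, and no ratio was given with 3 or fewer counts on both sides. Gene places came from GENCODE M21, in which 99.6% of gene IDs were found.

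The genes named were the members, their paralogs, up to 4 called genes of each list with the largest differences and the 5 genes most like each member. The members, gates and lists were chosen with earlier results of these data known. Alternatives covered the tool, scaling, filters, gate limits, depth, doublets, pseudocount and leaving out each library, and 2 of them (bone/stroma without Ptprc-detected cells, and ratios without the highest cell of each library) were added after the data were seen. The highest cell was the one with the most UMIs of the gene in question, so it differed between genes.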

Additional observations from a re-analysis of the deposited data

Results flagged for a closer look

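The direction of the Col10a1 ratio of mutant over control libraries was not the same at both ages. Over all passing cells it was 0.723 at 3 months and 24.6 at 12-16 months, and in Ihh-undetected cartilage 0.565 and 3.58. Read by age, Col10a1 at 12-16 over 3 months was 0.0661 in the control and 2.25 in the mutant libraries over all passing cells, and 0.355 and 2.25 in Ihh-undetected cartilage. With 1 library per condition these differences between ages or genotypes were not tested. The older control library held 55 Col10a1 UMIs, and 2376 of the 2763 UMIs of the older mutant library lay in 9 Ihh-detected cells. In the 3-month control library 1 cell held 1358 of the 3640 Col10a1 UMIs. In Ihh-detected cartilage Col10a1 was at 0.227-fold in the mutant at 3 months and at 4.67-fold at 12-16 over 3 months in the mutant libraries. With 3 counts in place of the 0 UMIs of the older control library its ratios there were 112 for mutant over control and 0.00947 for 12-16 over 3 months in control, but these rest on 3 control cells of a gene that 10 of 19 mutant cells also lacked and set no limit on the difference.

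Panx3 in bone/stroma was at 0.102-fold (0.00232 to 0.734) in the mutant at 3 months and at 2.59-fold at 12-16 months. These ratios rest on 1 to 31 UMIs, the first on 1 mutant UMI, and the difference was not tested. Without Ptprc-detected cells the 3-month mutant gate held Panx3 at 5.29 CPM (0.134 to 29.5), against 11.4 CPM (5.23 to 21.7) in the 3-month control. For Pth1r the ratios of 12-16 over 3 months were 1.45 in control and 0.746 in mutant libraries over all passing cells, 1.89 and 0.905 in Ihh-undetected cartilage, and 0.830 and 3.41 in bone/stroma. The last of these rests on the 3-month mutant gate, in which 23 of 39 cells held Ptprc, and none of these differences was tested. Without Ptprc-detected cells Pth1r in bone/stroma stood at 496 CPM at 3 months and 461 CPM at 12-16 months in the control libraries. In the mutant libraries it then stood at 588 and 477 CPM, so the direction by age was the same in both.

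Members were also detected in barcodes left out by the cell filter, which entered no comparison. The 415 such barcodes held 917257 UMIs, with Panx3 at 28.3 CPM, Prkg2 at 100.3 CPM and Pth1r at 402 CPM, above the limit that a count of 0 allows. Col10a1 had 3 UMIs there.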

How the results depend on the processing

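No paired analysis was possible because each group is 1 library and the labels give no replicate numbers. The library was a block in the comparison of gates. Of 168 alternative values for the 12 member contrasts, 156 kept their direction and side of the threshold. The cause of the changes below was not tested. Genes higher in Ihh-detected than in Ihh-undetected cartilage numbered 364, and 551 without a filter, 232 from thinned cells, 610 with Ptprc-detected cells left out of bone/stroma and 133 to 441 without 1 library (133 without the 3-month control, 216 without the 12-16-month control and 158 without the 12-16-month mutant library). Genes lower numbered 583, and 1184, 350 (thinned) and 302 to 680 without 1 library (307, 378 and 302 without the same 3 libraries). Against bone/stroma, Ihh-detected cartilage had 1142 genes higher (449 thinned) and 1184 lower (2364 without a filter, 560 thinned, 778 to 1166 without 1 library, the lowest without the 12-16-month mutant), and Ihh-undetected cartilage had 1523 higher (755 thinned) and 1284 lower (2382 and 853).

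Between the cartilage gates Col10a1 ranged from 3.72 to 5.11 on the log2 scale without 1 library, and against bone/stroma it was 2.04 in Ihh-undetected cartilage from thinned cells. Panx3 in Ihh-undetected cartilage against bone/stroma was -0.10 with DESeq2, -0.11 without TMM factors, -0.0818 thinned, -0.0092 with at least 2000 UMIs per cell, -0.50 without Ptprc-detected cells and -1.24 to 0.50 without 1 library. Pth1r was -1.15 thinned, -1.06 without Ptprc-detected cells and -1.12 to -0.0327 without 1 library.

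With every cell weighted equally the ratios of mutant over control over all passing cells at 3 months were 0.904 for Col10a1, 4.17 for Panx3, 4.98 for Prkg2 and 3.19 for Pth1r, and at 12-16 months 11.0, 0.85, 1.42 and 0.833, so that Panx3 and Pth1r turned direction. With equal gate shares they were 0.269, 1.21, 1.35 and 1.37 at 3 months, and 0.626 for Panx3 (turned), 1.37 for Prkg2 and 1.05 for Pth1r at 12-16 months. With TMM library sizes they were 0.636 for Col10a1, 3.21 for Prkg2 and 2.42 for Pth1r at 3 months, and Prkg2 was 4.0 without called doublets. In Ihh-detected cartilage at 3 months, equal weights gave 0.281 for Col10a1, 0.971 for Panx3, 1.04 for Prkg2 (turned) and 1.20 for Pth1r, and leaving out the highest cell of each library gave 0.317 for Col10a1 and 1.05 for Prkg2 (turned). At 12-16 months Prkg2 there was 1.22 with TMM, 0.797 with equal weights and 0.751 without the highest cells, and Pth1r 1.02 with TMM.

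Thinning to 2000 UMIs gave 8.51% of Ihh-undetected cells for Col10a1, 7.69% for Prkg2 and 18.1% for Pth1r, 49.0% of Ihh-detected cells for Panx3 and 43.2% of bone/stroma cells for Pth1r. Of the 5 genes most like each member, log2(CPM + 1) kept 2 for Col10a1, 3 for Panx3 and 1 for Prkg2, log2(CPM + 50) kept 3 for Panx3, and Spearman's rho kept 0, 1, 0 and 3 for Col10a1, Panx3, Prkg2 and Pth1r. Depth limits most the 12-16-month control library, whose Ihh-detected gate held 52611 UMIs.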
